A study of Mus musculus with 12 samples.

Results

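The 39 genes described here act in DNA replication and S phase. They were taken by name from the deposited table of 14107 genes, in which all 39 were found, and all 39 entered the test. The table holds RNA sequencing of O4-positive cells from mouse cortex and corpus callosum. The O4 antibody marks late oligodendrocyte precursors and immature oligodendrocytes, the glia that go on to make myelin. The 5 Chd7iKO libraries came from PDGFRaCre; Chd7flox/flox pups, in which a Cre recombinase under the Pdgfra promoter acts on floxed alleles of the chromatin remodeller Chd7. That promoter is active in oligodendrocyte precursors and also in fibroblasts of vessels and meninges. The 7 Control libraries came from Chd7flox/flox littermates without Cre. Pups of both groups were taken at postnatal day 7 and had been given tamoxifen under the skin (20 mg/ml, 40 µl at postnatal day 1 and 30 µl at day 4). Both groups thus carry the floxed alleles and the drug, and with no group that had Cre alone, effects of Cre and of the deletion cannot be told apart. How many pups made up a library, and which part of Chd7 was floxed, are not stated in the labels. All p-values thus rest on the variation among these 12 libraries, part of which may be technical.

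Libraries held 30384507 to 35512311 estimated counts. Levels are given as CPM, counts scaled to a common total after scaling with edgeR's TMM method. Across the table, 4167 genes (29.5%) passed edgeR's quasi-likelihood test at an adjusted p under 0.05. Chd7 itself stood at 242 ± 28.9 CPM in Chd7iKO and 236 ± 30.9 CPM in Control libraries (SD, n = 5 and 7), which does not check the deletion since reads were summed over the whole gene. The sorted cells carried the markers of their label, with Pdgfra at 4390 to 5924 CPM, Sox10 at 678 to 1260 CPM and Mbp at 1392 to 2805 CPM over the 12 libraries. Y-linked reads (4 genes) summed to 124 to 161 CPM in the 5 Chd7iKO libraries, against 148 to 315 CPM in Controls 2, 3, 4 and 7 and 0.0665 to 0.112 CPM in Controls 1, 5 and 6. Xist, which is transcribed from the inactive X of females, stood at 803 to 1417 CPM in Chd7iKO libraries, against 2590 to 3202 CPM in Controls 1, 5 and 6, 462 to 1515 CPM in Controls 3, 4 and 7 and 0.930 CPM in Control 2. All 5 Chd7iKO libraries and Controls 3, 4 and 7 thus held reads of both kinds. With the Y-linked level as a covariate, 36 of the 39 genes were higher, against 16.0% of all genes.

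Before a cell divides, origins of replication are licensed by loading the Mcm2-7 helicase onto DNA, with the origin recognition complex, Cdc6 and Cdt1. In S phase the helicase is switched on by Cdc45 and the GINS complex, and primase, polymerases, the sliding clamp and its loader copy the strands. Nucleotide synthesis and histone deposition keep pace. Most genes of this machinery are transcribed in a wave at the end of G1 by E2F factors. Oligodendrocyte precursors are the main dividing cells of the postnatal white matter, and they leave the cell cycle when they differentiate.

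Replication genes were higher in Chd7iKO cells almost throughout. Of the 39 genes, 38 rose and 0 fell in edgeR's quasi-likelihood test with Benjamini-Hochberg adjustment over all genes, where 15.8% of all genes were higher and 13.8% lower. The exception, not past the threshold, was Orc6. Their median log2 fold change was 0.68, against 0.00136 over all genes tested, and single genes ranged from 0.13 for Orc6 to 1.10 for Rrm2 and Mcm10. The rise was therefore moderate, at 1.23-fold to 2.14-fold for the 38 called genes. In these bulk samples, more cells in S phase and more RNA per cell cannot be told apart. The authors' deposited table gave 38 of the 39 genes an adjusted p under 0.05 (26.4% of all genes in either direction), and its log2 fold changes differed from those computed here by at most 0.000794.

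**Figure D1:**
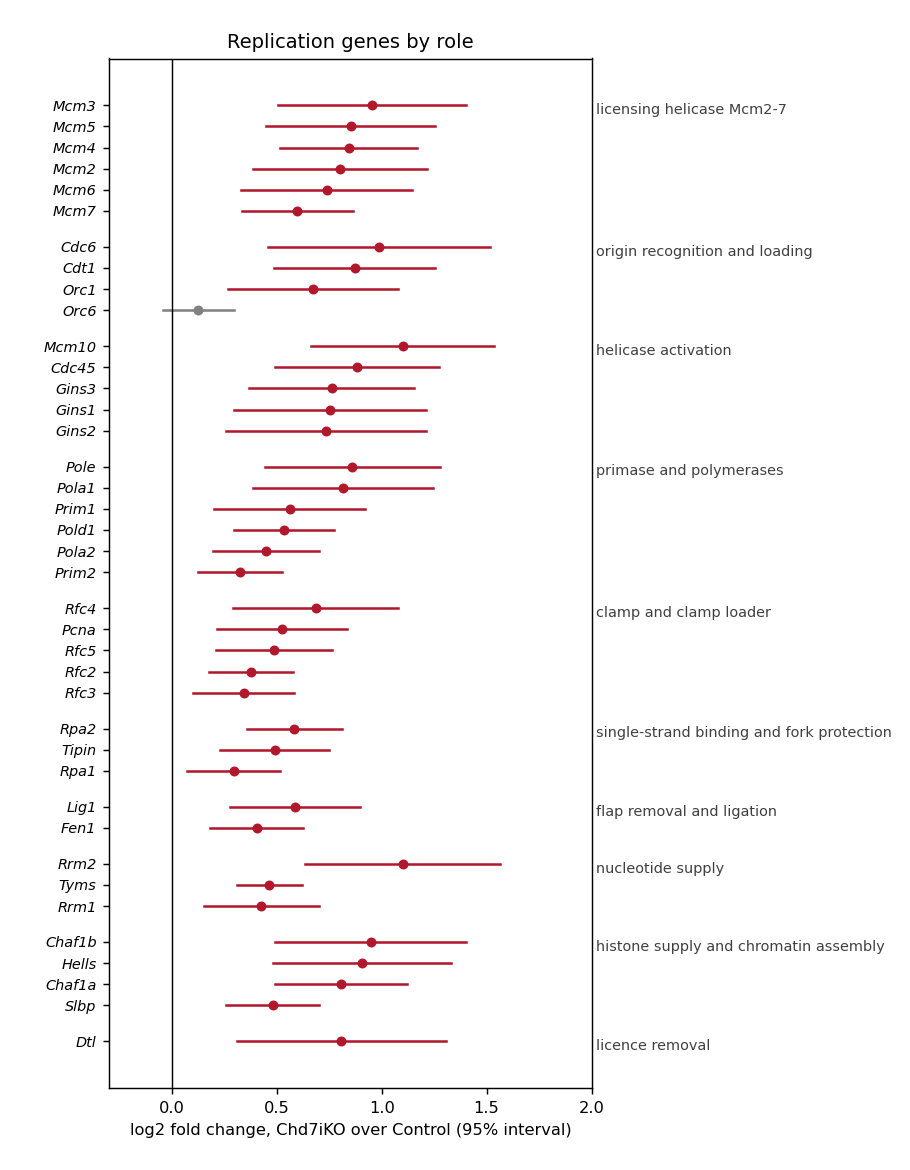
Fold change of the 39 replication genes, grouped by role. Points give the log2 fold change of Chd7iKO over Control from edgeR's quasi-likelihood fit, bars its 95% interval, and grey marks an adjusted p of 0.05 or more; 38 genes lie above 0 with their interval and Orc6 does not.

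The groups still overlapped for most genes. Every Chd7iKO library stood above every Control library for 6 of the 39 genes (Cdt1, Mcm10, Pole, Tyms, Chaf1b and Hells), where 6.2% of all genes did so. Chd7iKO 1 was the lowest Chd7iKO library for all 39 genes, and Control 6 was the highest Control for 35 of them. Control 6 lay above Chd7iKO 1 for 32 genes but above all Chd7iKO libraries for 0. Chd7iKO 1 stood above all 6 other Controls for 22 genes. Without Chd7iKO 1 alone, 33 of the 39 genes separated the groups (10.2% of all genes), and without Control 6 alone 22 did (8.55%). Without Controls 3 and 6 the count was also 22 (9.54% of all genes). With Chd7iKO 1 and Control 6 set aside, 38 separated the groups (13.7% of all genes), 38 again passed the test (18.9% of all genes were higher), and the median log2 fold change was 0.90. That pair was set aside after its values were seen, as the extremes of their groups, so that more separation follows from the choice itself. Leaving out either library of the pair alone likewise favours separation.

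The same order of libraries ran through the whole group of genes. Taken as the median over the 39 genes of log2 CPM minus the mean of the Control libraries, Chd7iKO 1 to 5 stood at 0.30, 0.75, 0.86, 0.85 and 0.85. Controls 1 to 7 stood at -0.39, 0.09, -0.30, -0.18, 0.04, 0.50 and 0.28. Chd7iKO 3 was the highest Chd7iKO library for 32 genes, and the lowest Control was Control 1 for 20 genes, Control 3 for 15 and Control 4 for 4. The 25 mitosis genes listed, all 25 of them higher, gave a like order, with medians of 0.58, 0.83, 0.91, 0.81 and 0.86 in Chd7iKO 1 to 5 and -0.38, 0.18, -0.15, -0.29, 0.02, 0.45 and 0.19 in Controls 1 to 7. Chd7iKO 1 was lower relative to the other Chd7iKO libraries in replication genes than in mitosis genes; that difference between the lists was not tested.

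**Figure D2:**
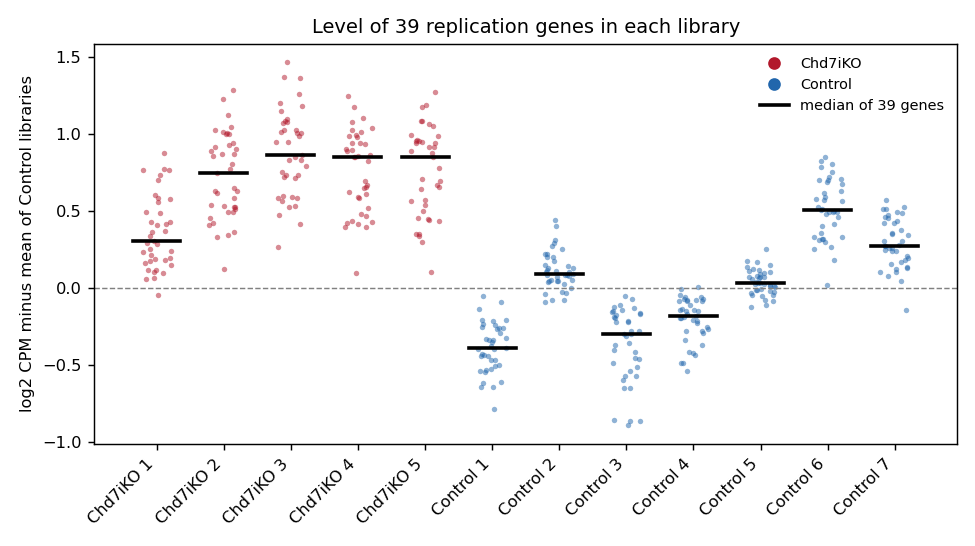
Level of the replication genes in each library. Each dot is a gene, on a scale of log2 CPM minus that gene's mean over the 7 Control libraries, and the bar is the median of the 39 genes; Chd7iKO 1 (0.30) lies below Control 6 (0.50) and Chd7iKO 2 to 5 lie at 0.75 to 0.86.

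Markers of other cells moved in the same comparison. Microglial markers were higher for 10 of 13 genes, with summed levels of 595 to 776 CPM in Chd7iKO and 303 to 678 CPM in Control libraries. Endothelial markers were higher for 8 of 10 genes (290 to 693 CPM in Chd7iKO against 161 to 413 CPM in Control), and mural and fibroblast markers for 7 of 10 (310 to 823 CPM in Chd7iKO against 125 to 367 CPM in Control, without Cspg4, which precursors share). Precursor markers were lower for 6 of 10 genes (15106 to 17111 CPM in Chd7iKO against 18350 to 22399 CPM in Control), as were 5 of 10 genes of newly formed and myelinating cells (4740 to 6496 CPM in Chd7iKO against 6542 to 8623 CPM in Control). For astrocytes 0 of 10 genes passed in either direction (3088 to 5013 CPM in Chd7iKO against 2997 to 6737 CPM in Control), and for neurons 4 of 11 were lower (1267 to 1386 CPM in Chd7iKO against 1430 to 1678 CPM in Control). None of the defining markers was at 0, with Aif1 of microglia at 1.43 to 4.22 CPM, Pecam1 of endothelium at 16.7 to 57.3 CPM, Pdgfrb of mural cells at 15.8 to 64.0 CPM, Aqp4 of astrocytes at 270 to 623 CPM and Rbfox3 of neurons at 2.56 to 5.70 CPM.

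Libraries with higher levels of these markers mostly had higher replication genes as well. A score was taken as the mean log2 CPM of 54 markers of microglial, vascular, astrocytic and neuronal cells. Cspg4, which precursors share, is among the 54. The score was 5.32, 5.58, 5.29, 5.91 and 5.92 in Chd7iKO 1 to 5, against 5.49, 4.89, 4.80, 4.82, 4.97, 5.52 and 5.27 in Controls 1 to 7. Within Chd7iKO, library 1 was lower than library 2, and library 2 lower than libraries 4 and 5, in the score and in the median of the replication genes alike. Among Controls 2 to 7, libraries 3 and 4 were the lowest and libraries 7 and 6 the highest in both. Outside this order were Chd7iKO 3, with the lowest score of its group and the highest replication genes, and Control 1, with a score near that of Control 6 and the lowest replication genes of its group. With the score as a covariate, 3 of the 39 genes remained past edgeR's threshold (Mcm10, Rpa2 and Tyms), where 4.37% of all genes were then higher. All 39 log2 fold changes stayed above 0 in that fit, at 0.15 to 0.93 with 0.47 as the median and adjusted p of 0.0158 to 0.530. Since the score was mostly higher in Chd7iKO libraries, that fit cannot tell the score and the genotype fully apart. Leaving out Chd7iKO 4 and 5, which had the highest scores, left 15 of the 39 genes higher, against 6.44% of all genes, with a median of 0.59 on the log2 scale. At a threshold of 0.01, 23 of the 39 genes were higher (7.77% of all genes), and DESeq2's Wald test and limma voom each called 38 (17.7% and 24.0% of all genes).

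The promoters of several of these genes carry the recognition letters of E2F factors, and the stretches below show where they lie. RefSeq windows (GRCm38.p6, 250 bases before to 50 after the start of the gene) were found for 32 of the 39 genes and not for Prim2, Gins2, Gins1, Tipin, Pole, Rfc2 and Mcm4. The letters TTTCCCGC, TTTGGCGC, TTTCGCGC and TTTGCCGC were searched on both strands. At least 1 of them was found in 14 of the 32 windows (43.8%), namely those of Mcm3, Mcm5, Mcm6, Mcm7, Orc1, Cdc6, Cdt1, Gins3, Pola1, Pold1, Rfc3, Lig1, Hells and Dtl. The share was 4.52% of the 10733 tested genes with a window (485 genes) and 2.26% of all 32851 windows. The letters CCAAT, on either strand, were in 21 of the 32 windows (65.6%) against 42.7% of tested genes, and TTTGAA in 4 of the 32 (12.5%) against 13.9%. The 160 bases before the start are given for 4 genes, in which this stretch holds E2F letters and lies outside the transcripts of both RefSeq and GENCODE, read 5′ to 3′ along the gene's strand with the E2F letters of either strand in capitals; where matches on opposite strands overlap, the capitals run on.
Mcm5: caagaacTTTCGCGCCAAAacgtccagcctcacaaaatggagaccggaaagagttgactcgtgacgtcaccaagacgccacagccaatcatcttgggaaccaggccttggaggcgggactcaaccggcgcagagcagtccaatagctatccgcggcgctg
Mcm6: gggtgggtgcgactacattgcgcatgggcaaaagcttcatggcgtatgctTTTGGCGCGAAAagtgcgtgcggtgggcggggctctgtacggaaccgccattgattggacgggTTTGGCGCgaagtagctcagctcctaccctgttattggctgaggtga
Pola1: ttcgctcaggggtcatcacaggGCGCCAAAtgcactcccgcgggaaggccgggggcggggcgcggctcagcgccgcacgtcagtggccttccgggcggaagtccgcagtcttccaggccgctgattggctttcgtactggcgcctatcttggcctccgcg
Dtl: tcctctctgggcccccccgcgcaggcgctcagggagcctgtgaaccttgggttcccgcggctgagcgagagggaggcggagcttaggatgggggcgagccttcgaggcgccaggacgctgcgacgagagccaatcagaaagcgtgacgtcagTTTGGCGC

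The Mcm5 stretch is chr8:75109349-75109508 on the plus strand, and its capitals are 2 overlapping matches. The Mcm6 stretch is chr1:128359706-128359865 on the minus strand and holds 3 matches, of which 2 overlap. The stretches of Pola1 (chrX:93632156-93632315, minus strand) and Dtl (chr1:191575545-191575704, minus strand) hold 1 match each. A match describes letters in a window, and binding of a factor was not measured. Of the 14 genes with E2F letters all passed the test, as did 17 of the 18 with a window and none of these letters; the remaining gene was Orc6.

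All 6 subunits of the Mcm2-7 helicase, the ring that unwinds DNA ahead of the fork, were higher. Mcm3 had 66.7, 97.6, 101, 96.0 and 94.9 CPM in Chd7iKO 1 to 5, against 28.6 to 75.5 CPM with a median of 44.7 CPM in Control libraries. Only Chd7iKO 1 fell within the Control range. Its fold change was the largest of the 6 (1.93-fold, log2 fold change 0.95, SE 0.21, edgeR adjusted p = 0.00466). Mcm5 had 92.8, 139, 145, 139 and 132 CPM in Chd7iKO libraries, against 50.3 to 110 CPM (median 67.5 CPM) in Control (log2 fold change 0.85, SE 0.19, edgeR adjusted p = 0.00473). Mcm4 (log2 fold change 0.84), Mcm2 (0.80) and Mcm6 (0.74) rose to like degrees. Mcm7 had the smallest fold change, with 90.7, 115, 124, 119 and 116 CPM in Chd7iKO libraries against 55.9 to 96.9 CPM (median 69.5 CPM) in Control (0.60, SE 0.12, edgeR adjusted p = 0.00311). Exons of Mcm7 overlap those of Ap4m1 and Cops6 on the opposite strand, the larger overlap covering 10.8% of their length. Whether its counts include reads of these genes was not tested. In CPM per kilobase of exon, which sets levels of different genes on one scale, the 6 subunits stood at 30.1 (Mcm3) to 38.1 (Mcm7) in Chd7iKO and at 15.6 (Mcm3) to 25.2 (Mcm7) in Control cells. The ring's genes lie apart, on chromosomes 1, 5, 6, 8 and 16.

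Of the 4 factors that load the helicase, 3 were higher. Cdc6, the ATPase that joins the origin recognition complex to receive the helicase, had 11.2, 15.5, 19.2, 16.9 and 17.1 CPM in Chd7iKO libraries, against 4.14 to 13.2 CPM (median 8.12 CPM) in Control libraries (1.98-fold, SE 0.25 on the log2 scale, edgeR adjusted p = 0.00960). Cdt1, its partner in loading, had 26.2, 28.0, 34.2, 28.9 and 29.9 CPM in Chd7iKO against 10.6 to 22.1 CPM (median 15.6 CPM) in Control, with no overlap (log2 fold change 0.87, SE 0.18, edgeR adjusted p = 0.00316). Orc1, the subunit of the origin recognition complex whose level varies with the cell cycle in mammalian cells, was at 3.70 to 5.23 CPM in Chd7iKO and 1.98 to 3.91 CPM in Control libraries (log2 fold change 0.67, SE 0.19, edgeR adjusted p = 0.0173). Per kilobase of exon it had the lowest level of the 39 genes, at 1.52 CPM in Chd7iKO and 0.952 CPM in Control cells, and without Chd7iKO 5 its call was lost (edgeR adjusted p = 0.0534). Orc6, on chromosome 8 from 85299632 to 85308278, was the gene that did not pass. It had 33.4, 34.8, 38.3, 34.0 and 34.3 CPM in Chd7iKO libraries and 28.8 to 39.5 CPM (median 30.8 CPM) in Control libraries, with the highest value in Control 2. The difference was within the spread of the libraries (log2 fold change 0.13, SE 0.08, 95% interval -0.04 to 0.29, edgeR adjusted p = 0.253), and without Control 2 it passed at an adjusted p of 0.0426.

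The 5 factors that switch on the loaded helicase were all higher. Mcm10 (chromosome 2 from 4989714 to 5012791), which is needed to start unwinding and is not part of the ring, had 17.8, 23.7, 26.8, 19.2 and 21.9 CPM in Chd7iKO libraries against 5.35 to 15.1 CPM (median 10.7 CPM) in Control libraries. The groups did not overlap, and the rise was 2.14-fold (1.10 ± 0.20 as log2 with its SE, edgeR adjusted p = 0.00163). Cdc45, which binds the ring together with GINS, had 17.1, 22.1, 24.5, 24.5 and 23.0 CPM in Chd7iKO against 8.30 to 18.9 CPM (median 11.0 CPM) in Control (log2 fold change 0.88, SE 0.18; adjusted p = 0.00322 in edgeR). The GINS subunits Gins3 (0.76), Gins1 (0.75) and Gins2 (0.73) rose by nearly the same amount from low levels, at 4.37 to 14.4 CPM in Chd7iKO and 2.59 to 12.1 CPM in Control libraries over the 3 genes. The Gins2 call was lost without Chd7iKO 2, 3, 4 or 5 in turn, with adjusted p of up to 0.0635, and 70.7% of its exon length overlaps exons of Gse1 on the opposite strand.

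Subunits of the primase and the replicative polymerases rose by 0.32 to 0.86 on the log2 scale. Pole, the catalytic subunit of polymerase epsilon, which copies the leading strand, had 53.1, 62.7, 66.5, 56.4 and 57.6 CPM in Chd7iKO libraries against 17.1 to 46.0 CPM (median 32.1 CPM) in Control libraries, without overlap (log2 fold change 0.86, SE 0.19, edgeR adjusted p = 0.00533). Pola1, the catalytic subunit of polymerase alpha, which extends primers, had 19.2, 31.8, 32.5, 34.7 and 35.7 CPM in Chd7iKO against 11.6 to 27.4 CPM (median 16.0 CPM) in Control (0.81, SE 0.20, adjusted p = 0.00870 in edgeR). Pold1, the catalytic subunit of polymerase delta, which copies the lagging strand, rose by 0.54 (SE 0.11) on the log2 scale, at 36.7 to 55.2 CPM in Chd7iKO against 26.5 to 38.3 CPM in Control. The primase subunits Prim1 (0.56) and Prim2 (0.32) and the accessory subunit Pola2 (0.45) rose too. Prim2 was at 48.5 to 62.2 CPM in Chd7iKO and 36.6 to 55.0 CPM in Control libraries. Its call was lost without Chd7iKO 3, at an adjusted p of 0.0517, and the Prim1 call without Chd7iKO 3, 4 or 5, at up to 0.0612.

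**Figure D3:**
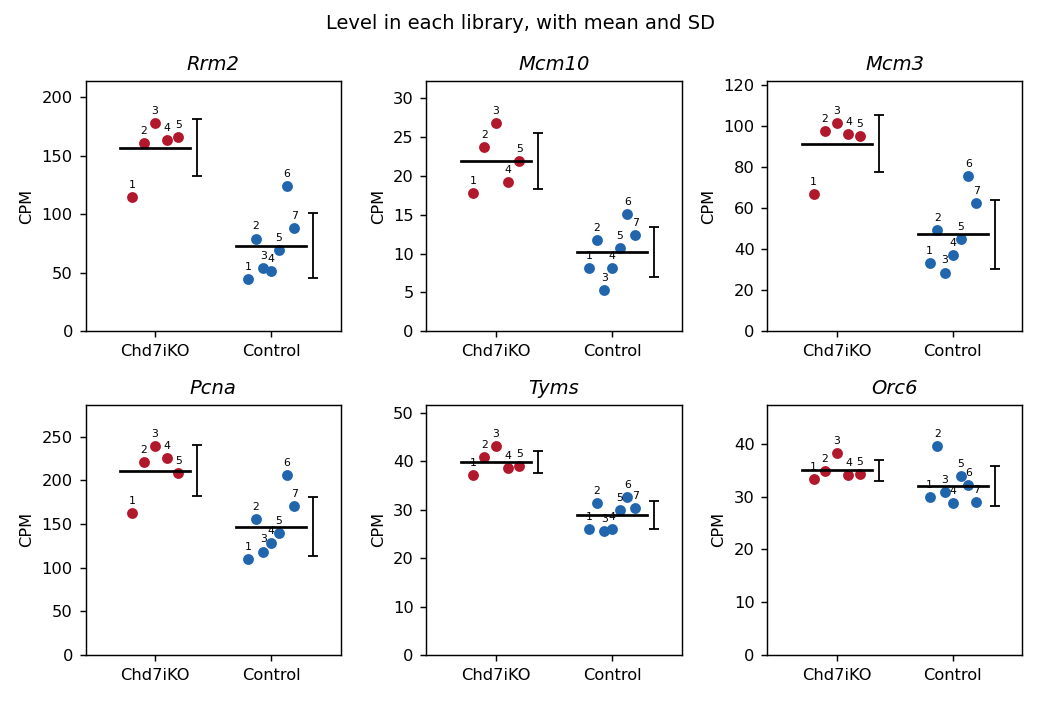
Level of 6 replication genes in each library. Points are CPM with the replicate number above, lines are means and bars are the SD (n = 5 Chd7iKO and 7 Control); Mcm10 and Tyms do not overlap between groups, Rrm2 and Mcm3 overlap through Chd7iKO 1 and Control 6, Pcna through Chd7iKO 1 and Controls 6 and 7, and Orc6 overlaps fully.

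The sliding clamp and its loader followed. Pcna, the ring that holds polymerases on DNA, had 163, 221, 239, 226 and 209 CPM in Chd7iKO libraries against 109 to 207 CPM (median 140 CPM) in Control libraries (1.44-fold, log2 fold change 0.52, SE 0.14, edgeR adjusted p = 0.0153). Per kilobase of exon it stood highest of the 39, at 139 ± 19.3 CPM in Chd7iKO and 96.8 ± 22.2 CPM in Control cells (SD, n = 5 and 7). The loader subunit Rfc4 had 17.2, 25.6, 27.3, 27.1 and 27.5 CPM in Chd7iKO against 8.71 to 22.3 CPM (median 15.4 CPM) in Control (0.68, SE 0.18, edgeR adjusted p = 0.0142). Rfc5 (0.49), Rfc2 (0.38) and Rfc3 (0.34) rose as well. Rfc3 had the smallest fold change of these, at 26.9 to 34.8 CPM in Chd7iKO against 19.7 to 29.3 CPM in Control, and its call was lost on leaving out any of 8 libraries in turn, with adjusted p of up to 0.0893. Exons of Rfc2, Rfc5 and Rfc4 overlap a gene on the opposite strand over 19.1%, 15.4% and 13.4% of their length, and whether counting used the strand was not stated. Pcna and Tyms have named pseudogenes in the annotation, so that their reads are uncertain to that extent.

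Proteins that guard unwound DNA and finish the lagging strand rose by 0.29 to 0.59 on the log2 scale. Rpa2, of the complex that coats unpaired strands, had 28.8, 35.4, 38.0, 34.3 and 36.3 CPM in Chd7iKO libraries against 19.2 to 30.4 CPM (median 21.7 CPM) in Control libraries (log2 fold change 0.58, SE 0.11, edgeR adjusted p = 0.00140). Rpa1, the large subunit of the same complex, rose least of the called genes, at 66.6, 86.6, 91.8, 92.2 and 87.6 CPM in Chd7iKO against 59.1 to 86.5 CPM (median 67.6 CPM) in Control (0.29, SE 0.10, edgeR adjusted p = 0.0448). Leaving out any of 9 libraries in turn lost the Rpa1 call, with adjusted p of up to 0.104. Tipin, which steadies the fork with its partner Timeless, rose by 0.49 on the log2 scale (43.5 to 54.1 CPM in Chd7iKO against 27.9 to 48.9 CPM in Control). Lig1, the ligase that seals Okazaki fragments, was at 80.4 to 114 CPM in Chd7iKO against 46.8 to 92.9 CPM in Control (0.59), and the flap nuclease Fen1 at 39.5 to 49.5 CPM in Chd7iKO against 28.6 to 42.0 CPM in Control (0.40).

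Among the enzymes of nucleotide supply, the small subunit of ribonucleotide reductase stood out. Rrm2 (chromosome 12 from 24708241 to 24714146 in GRCm38), the subunit that limits the enzyme in S phase, had 114, 161, 178, 163 and 166 CPM in Chd7iKO libraries against 44.3 to 124 CPM (median 69.3 CPM) in Control libraries. Chd7iKO 2 to 5 were above every Control, and Chd7iKO 1 was below Control 6 alone. The rise was 2.14-fold (log2 fold change 1.10, SE 0.22, edgeR adjusted p = 0.00238). Rrm1, the large subunit, had 168, 201, 227, 225 and 206 CPM in Chd7iKO against 120 to 210 CPM (median 152 CPM) in Control (0.42, SE 0.13, edgeR adjusted p = 0.0234). The Rrm1 call was lost without Chd7iKO 3, 4 or 5 in turn, at adjusted p of up to 0.0588. Tyms, which makes thymidylate, had the smallest standard error and the smallest adjusted p of the 39 genes, with 37.1, 40.9, 43.1, 38.7 and 39.1 CPM in Chd7iKO libraries and 25.6 to 32.6 CPM (median 29.9 CPM) in Control libraries, without overlap (0.46, SE 0.07, edgeR adjusted p = 0.000522).

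Genes that rebuild chromatin behind the fork were higher as well. Chaf1b, a subunit of the histone chaperone CAF-1, had 22.8, 26.8, 32.1, 27.3 and 28.0 CPM in Chd7iKO libraries against 8.77 to 21.8 CPM (median 15.1 CPM) in Control libraries (log2 fold change 0.95, SE 0.21; adjusted p = 0.00517 in edgeR). Its partner Chaf1a had 33.6, 43.7, 48.7, 43.2 and 45.3 CPM in Chd7iKO against 16.1 to 34.1 CPM (median 24.6 CPM) in Control (0.81, SE 0.15, edgeR adjusted p = 0.00150), although 33.6% of its exon length overlaps Ubxn6 on the opposite strand. Hells, a remodeller that supports DNA methylation, had 23.4, 28.7, 33.0, 26.6 and 29.8 CPM in Chd7iKO against 9.55 to 22.1 CPM (median 15.7 CPM) in Control, without overlap (0.91, SE 0.20, edgeR adjusted p = 0.00456). Slbp, which binds histone mRNA, rose by 0.48 (30.3 to 40.2 CPM in Chd7iKO against 20.4 to 32.9 CPM in Control). Dtl, the ubiquitin ligase receptor that has Cdt1 destroyed on the clamp in S phase, had 30.2, 37.2, 42.0, 38.0 and 39.6 CPM in Chd7iKO against 10.8 to 32.8 CPM (median 21.5 CPM) in Control (0.81, SE 0.23, edgeR adjusted p = 0.0193). Dtl and Cdt1 were thus both higher.

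Within complexes, some ratios between subunits differed between the groups. The ratio of each pair of subunits was compared between groups in 10 complexes, other subunits of the table included, with two-sided exact permutation tests of the genotype labels (792 arrangements). This comparison was added after the data were seen; the smallest p it can give is 0.00126, and p-values were adjusted over the 73 pairs. Of the 73 ratios, 29 differed at an adjusted p under 0.05. Most of the 29 involved a subunit outside the set of replication genes selected for this description. Within that set, the ratios that differed lay in the Mcm2-7 ring or were Pola1 to Prim2, Rpa2 to Rpa1 and Rrm2 to Rrm1. Most ratios within the set did not differ. Pairs share subunits and so are not independent, and the share among pairs of other genes was not tested. The log2 ratio of Rrm2 to Rrm1 was -0.40 ± 0.11 in Chd7iKO and -1.12 ± 0.24 in Control libraries (SD, n = 5 and 7), a difference of 0.73 with no overlap (exact permutation, adjusted p = 0.0184). Rrm2b, the alternative small subunit induced by p53, was lower (23.0 ± 1.10 CPM in Chd7iKO against 26.2 ± 1.84 CPM in Control, log2 fold change -0.19, edgeR adjusted p = 0.0368), and the log2 ratio of Rrm2 to Rrm2b differed by 1.35 (adjusted p = 0.0205, exact permutation).

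In the origin recognition complex, Orc1 alone passed the test. Besides Orc1 (0.67) and Orc6 (0.13), its subunits Orc2 (0.08), Orc3 (-0.09), Orc4 (-0.05) and Orc5 (0.05) did not pass, with edgeR adjusted p of 0.229 to 0.751. The log2 ratio of Orc1 to Orc3 was -4.25 ± 0.26 in Chd7iKO and -5.05 ± 0.37 in Control libraries (difference 0.80, exact permutation, adjusted p = 0.0213), and that of Orc1 to Orc4 differed by 0.75 (adjusted p = 0.0205). The ratio of Orc1 to Orc6 differed by 0.58 and missed the threshold (exact permutation, adjusted p = 0.0503). In GINS, Gins4 (0.08) did not pass and the log2 ratio of Gins3 to Gins4 differed by 0.69 (exact permutation, adjusted p = 0.0230). In polymerase alpha and primase, the ratio of Pola1 to Prim2 differed by 0.50 (exact permutation, adjusted p = 0.0350), and those of Pola1 to Pola2 and to Prim1 missed the threshold (0.39, adjusted p = 0.0503, and 0.25, adjusted p = 0.0668). The ratios of Rfc4 to Rfc2, Rfc5 and Rfc3 missed it too (exact permutation, adjusted p = 0.0503 to 0.0558), while that of Rfc4 to the large subunit Rfc1 differed by 0.47 (adjusted p = 0.0263). The calls of Pola1 to Prim2 and of Rfc4 to Rfc1 were lost without Chd7iKO 2, 3, 4 or 5 in turn, with adjusted p of 0.0527 to 0.0839 in the exact permutation test. Calls of other ratios were lost too, as the count of 29 fell to 12, 9, 10 and 14 without these libraries. Which of the other named ratios kept their call is not given here. In polymerase epsilon, Pole2 (0.74) rose beside Pole, as did Pole4 (0.27, edgeR adjusted p = 0.0389), while Pole3 (0.16) did not pass (adjusted p = 0.215 in edgeR). The log2 ratio of Pole to Pole3 was 1.55 ± 0.13 in Chd7iKO and 0.80 ± 0.43 in Control libraries (difference 0.75, exact permutation, adjusted p = 0.0213), and that of Pole to Pole2 differed by 0.14 (adjusted p = 0.487).

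Ratios also differed within polymerase delta and CAF-1. The log2 ratio of Pold1 to the small subunit Pold4 (log2 fold change 0.04) differed by 0.50 (exact permutation, adjusted p = 0.0184). Rbbp4, a histone-binding protein shared by many chromatin complexes, had a log2 fold change of 0.03 and did not pass, and the log2 ratios of Chaf1a and Chaf1b to it differed by 0.79 and 0.99 (exact permutation, adjusted p = 0.0184 and 0.0205). The ratio of Chaf1b to Chaf1a differed by 0.19 (exact permutation, adjusted p = 0.280). In the Mcm2-7 ring the differences were small but 5 of 15 passed, and 4 of these were ratios of Mcm3 to another subunit, by 0.12 to 0.40 on the log2 scale; the fifth was Mcm4 to Mcm7, by 0.25 (exact permutation, adjusted p = 0.0205). The ratio of Rpa2 to Rpa1 differed by 0.30, without overlap (exact permutation, adjusted p = 0.0184). The count of 29 ratios was 9 to 14 when Chd7iKO 2, 3, 4 or 5 was left out, 27 to 39 when Chd7iKO 1 or a Control library was, and 0 without both Chd7iKO 4 and 5. The 3 Chd7iKO libraries left in that last case allow 120 arrangements and a smallest p of 0.00833, at which 13 of the 73 pairs would have to stand for any to pass the adjustment, so that the 0 says nothing of stability; with 4 Chd7iKO and 7 Control libraries the smallest p is 0.00303.

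**Figure D4:**
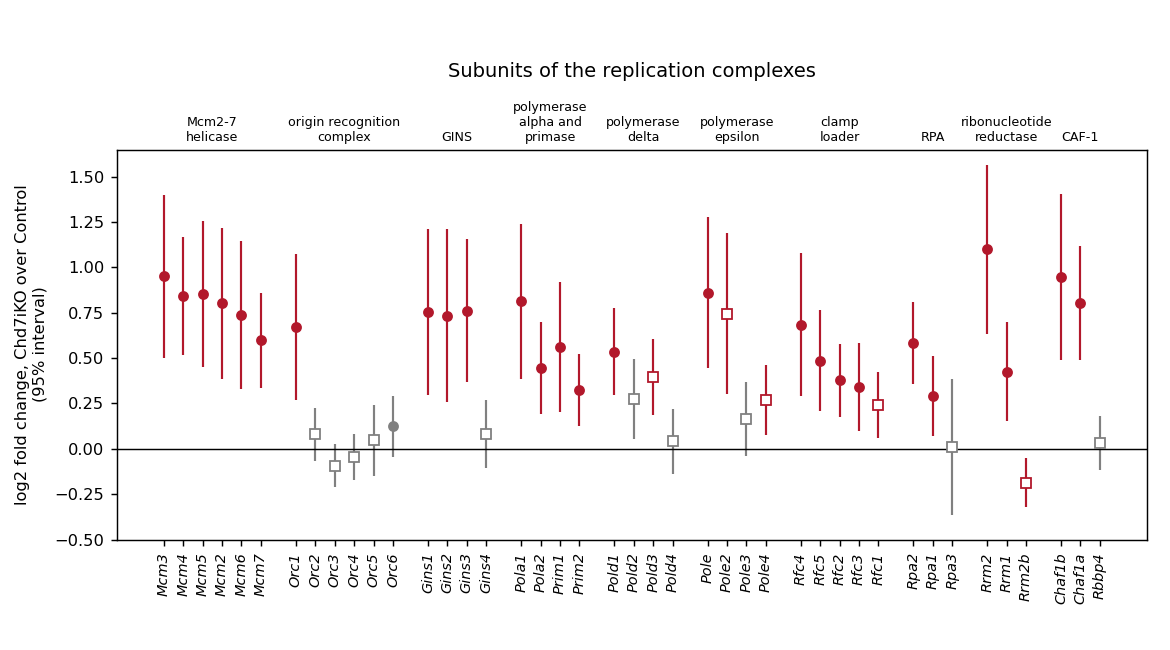
Fold change of subunits of 10 replication complexes. Filled circles are genes of the set of 39 and open squares other subunits, bars are 95% intervals of edgeR's quasi-likelihood fit of Chd7iKO over Control, and red marks an adjusted p under 0.05; within the origin recognition complex Orc1 alone is red, and Rrm2b is the single red point below 0.

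Most other genes of replication were higher too. Of 80 such genes, 53 were higher, 1 was lower (Rrm2b) and 26 did not pass in edgeR, and the median was 0.34 on the log2 scale. The fall of Rrm2b was slight, and 0 of the 80 genes were lower with scaling to library totals or upper quartiles, or without Chd7iKO 2, 3 or 5 or Control 2, 4, 5 or 7 in turn. Among 18 genes of licensing and firing, 11 were higher, led by adjusted p by Recql4, a helicase needed to start replication (16.9 ± 1.91 CPM in Chd7iKO against 9.04 ± 1.62 CPM in Control), Dbf4, the activator of the kinase Cdc7 (0.71), and Ticrr, which brings Cdc45 to origins (0.80). Of 18 genes of polymerases, loaders and maturation, 9 were higher, among them the nuclease Dna2 (0.73), the clamp unloader Atad5 (0.64) and Chtf18 (0.80), of an alternative loader. Fork protection and cohesion genes were higher for 8 of 10, with the helicase Ddx11 at 34.4 ± 4.18 CPM in Chd7iKO against 16.9 ± 4.02 CPM in Control (1.03), and with the partners Mms22l (0.74) and Tonsl (0.59), which act at stalled forks. In nucleotide supply 14 of 20 were higher, with Cad of pyrimidine synthesis (0.62) and the folate enzymes Shmt1 (0.69) and Mthfd2 (0.65). Of 14 genes of histone supply and maintenance of methylation, 11 were higher, with the maintenance methyltransferase Dnmt1 at 276 ± 21.6 CPM in Chd7iKO against 194 ± 28.4 CPM in Control (0.51), Uhrf1 (0.83) and Casp8ap2 (0.29).

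Regulators of entry into S phase were higher for 22 of 30 genes and lower for 1, and their median was 0.51 on the log2 scale. The cyclins Ccnd2 (439 ± 45.2 CPM in Chd7iKO against 148 ± 46.0 CPM in Control, log2 fold change 1.57) and Ccnd3 (0.56) and the phosphatase Cdc25a (0.47), which activates cyclin-dependent kinases, had the smallest adjusted p. Cdkn1c, an inhibitor of cyclin-dependent kinases, was the gene that fell (31.5 ± 3.76 CPM in Chd7iKO against 41.3 ± 3.01 CPM in Control, -0.39, edgeR adjusted p = 0.00308). Of the 4 other inhibitors in the list, named after their values were seen, Cdkn2b (2.66), Cdkn1a (1.97) and Cdkn2c (0.58) rose, with Cdkn1a at 118 ± 17.8 CPM in Chd7iKO against 30.0 ± 18.4 CPM in Control, and Cdkn1b (-0.11) did not pass. E2f1, chosen for mention after its value was seen because of the letters searched above, rose by 1.08 on the log2 scale, and the repressor-type E2f7 by 1.02, while E2f4 (0.09) did not pass.

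Binding of Chd7 was given by the authors as gene lists, and how sites were tied to genes was not stated. Of the 39 genes, 12 (30.8%) are listed as bound by Chd7 in precursors, against 39.4% of all tested genes, and the 12 make up 0.216% of the tested genes on that list. They are Mcm7, Orc1, Cdt1, Gins2, Pold1, Pcna, Rpa1, Rrm2, Chaf1a, Slbp, Hells and Dtl. The same 12 are on the list of genes bound by both Chd7 and the related remodeller Chd8. The share of all tested genes on that joint list is not given here. The count of 12 on it is therefore not read as a trait of these genes. A further 22 of the 39 (56.4%) are listed as bound by Chd8 and not Chd7, against 32.0% of tested genes. Genes listed as bound by Chd7 and not Chd8 numbered 0 of 39, against 4.6% of tested genes. All 12 stand on the authors' list of higher, Chd7-bound genes, which was drawn from these same samples and is no independent evidence of direction. Mcm10 and Chaf1b, among the larger rises, are on the list of Chd8 without Chd7, and Rrm2 is on the list of both.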

How the data were processed

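RNA of 12 libraries was sequenced after a stranded mRNA kit, per the labels' protocols. Build mm10 and the tools TopHat2, Bowtie, featureCounts and edgeR are named, without role or version, in the submitters' processing notes; annotation and strand setting of the counting were not stated. The values deposited by the authors are unscaled estimated counts, of which 1.76% were not whole (0 of the 39 genes' values), and these were rounded. A log2 fold change and p-value per gene, deposited by the authors, were used only where named, as were gene lists without values. Groups came from the sample titles.

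The main test was edgeR 4.0.16's quasi-likelihood F-test, two-sided, with TMM scaling, its expression filter (which removed 0 genes), no covariate and Benjamini-Hochberg adjustment over all 14107 genes at 0.05. Standard errors and 95% intervals come from that fit, and R was 4.3.3. The lowest count of any of the 39 genes was 66. Libraries of a group differed by a chi-square of at least 9.14 per degree of freedom, so that each library counted as 1 replicate. CPM and intervals cover counting and spread between libraries, not pups. Gene positions and exon lengths are those of GENCODE on GRCm38; exons of 8 of the 39 genes overlap those of another gene on the opposite strand. Named genes besides the 39 are up to 3 called genes of each list by smallest adjusted p, genes moving against their list, subunits of the complexes and cell type markers. E2F factors and further inhibitors of cyclin-dependent kinases were named after their values were seen. The 39 genes and the lists were chosen with earlier results of these data known. Alternatives were other scalings (DESeq2 1.42.0 size factors, upper quartile, library totals), filters, thresholds, tests (DESeq2, limma 3.58.1), covariates, a replicate block and libraries left out; ratios of subunits and the fit without Chd7iKO 1 and Control 6 were added after the data were seen. The code was tested on simulated data.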

Additional observations from a re-analysis of the deposited data

Results flagged for a closer look

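Among the 78 groups of values tested (39 genes in each of the genotypes), 10 had a library set apart by a gap larger than Dixon's 95% critical value. For a single group chance gives about 1 in 20. The genes moved together, with Chd7iKO 1 the lowest Chd7iKO library for all 39. The 78 groups are therefore not independent, and their count cannot be set against that share. Chd7iKO 1 was the low library in 9 of the 10 groups. It had 90.7 CPM of Mcm2, 66.7 CPM of Mcm3, 92.8 CPM of Mcm5 and 90.7 CPM of Mcm7. For the other 4 Chd7iKO libraries the lowest values of these helicase subunits were 126, 94.9, 132 and 115 CPM. In the same library Rrm2 stood at 114 CPM, Rpa1 at 66.6 CPM, Pola1 at 19.2 CPM, Rfc4 at 17.2 CPM and Gins3 at 4.37 CPM. The remaining group was Orc6, where Chd7iKO 3 was high at 38.3 CPM against 33.4 to 34.8 CPM in the other Chd7iKO libraries, within the Control range. No Control library was set apart in this way for any of the 39 genes. Without Chd7iKO 1, 38 genes were again higher in edgeR's quasi-likelihood test (16.7% of all genes), and 33 rather than 6 separated the groups (10.2% of all genes). More separation follows from leaving out the library that was lowest of its group for all 39 genes.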

How the results depend on the processing

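The count of 38 higher genes among the 39 was the same with DESeq2 size factors, upper quartile scaling, library totals, no filter, DESeq2's Wald test, limma voom, a threshold of 0.1, and without Controls 3 and 6. It was 37 of 38 with a filter of 5 CPM, which removes Orc1, 36 with Y-linked genes as a covariate, 32 to 38 with each library left out, 23 at a threshold of 0.01, 15 without Chd7iKO 4 and 5, and 3 with the score of other cell types. No gene of the 39 was lower in any of these fits. Over all genes, 3392 higher and 3070 lower were called by limma voom, 1096 and 960 at 0.01, 616 and 552 with the score of other cell types, 908 and 839 without Chd7iKO 4 and 5, and 1397 to 2486 and 1293 to 2126 with each library left out. Of the 80 other replication genes, 32 were higher at 0.01, 18 with that score and 26 without Chd7iKO 4 and 5. The count lower was 1, and 5 by limma voom, 3 at 0.1, 2 with the replicate block, and 0 with library totals, upper quartiles, 0.01, the score, or Chd7iKO 4 and 5 left out, and 0 to 1 with each library left out. Genes without overlap between groups numbered 6 to 33 with each library left out (22 without Control 6), 22 without Controls 3 and 6 (9.54% of all genes), and 38 without Chd7iKO 1 and Control 6. Differing subunit ratios numbered 9 to 39 with each library left out and 0 without Chd7iKO 4 and 5, where only 13 or more pairs at the smallest p could pass. The replicate numbers are not stated to pair the libraries. Deviations from the group mean correlated at 0.376 for the libraries numbered 1, and at -0.120, 0.0839, -0.127 and -0.177 for numbers 2 to 5. Control 1 was also the best match of Chd7iKO 1 among the Controls. Both had the highest summed astrocyte markers of their group (6737 CPM in Control 1 and 5013 CPM in Chd7iKO 1). Whether they share a batch was not tested. With the number as a replicate block 38 genes were higher, with a median log2 fold change of 0.90. Causes of these shifts were not tested. The lowest count of any of the 39 genes in a library was 66 (Orc1), and whether depth set a call was not tested.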
